A study of Mus musculus with 6 samples.

Results

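Myelin genes encode the proteins of the sheath that oligodendrocytes wrap around axons in the brain. Levels of 9 of them (Mbp, Mobp, Cnp, Mag, Mog, Mal, Cldn11, Opalin and Ermn) were followed in mouse gliomas and in glioma-initiating cells (GICs), the cells of a glioma able to start another tumor. The genes were taken by name from 46951 rows for tumors and 46952 rows for GICs, and each had 1 row of its own in both tables. In tumors, 5 of the 9 were higher and 4 lower in the old than in the young host, a split near that of all rows, of which 48.3% were higher. Mobp and Ermn were more than 2-fold higher, where 1.60% of all rows were. In GIC cultures, Cnp was the one member above 1 FPKM in all 3 libraries.

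The study had injected GICs of the line 7080 into brains of young and old C57BL/6 mice, taken the tumors when symptoms appeared, and set up new GIC cultures from them. Tumors came from a young group, an old group and an old group that received NMN ahead of the tumor (NMN-before), and cultures from groups of those names. NMN, left as an abbreviation in the labels, usually stands for the NAD+ precursor nicotinamide mononucleotide. The sources used here state neither the ages, nor the NMN dose, nor how many mice a library holds, and all hosts and cultures share 1 line of tumor cells. Each group was 1 library, so every difference compares 2 libraries and no test between conditions exists. Values are FPKM, fragments scaled by transcript length and library size, which allows levels of different genes to be compared. Depth was estimated at 11.3 M to 18.7 M fragments for tumors and 9.72 M to 12.7 M for GICs, where M stands for 1e6.

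Oligodendrocytes arise from precursor cells, pass through a premyelinating stage, and then build myelin by wrapping and compacting their own membrane. Mbp and Mobp are basic proteins that hold the cytoplasmic faces of compact myelin together. Cnp is an enzyme of the cytoplasmic channels that stay open, and it is already made by premyelinating cells. Mag and Mog sit on the inner and outer surface of the sheath, Cldn11 forms tight junctions between its layers, and Mal is a membrane sorting proteolipid. Opalin and Ermn, a transmembrane glycoprotein and an actin-binding protein, mark late oligodendrocytes. Transcription of myelin genes depends on SOX10, which binds letters such as ACAAAG, and on MYRF.

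Upstream sequences are shown for the members that stood more than 2-fold apart on the log2(FPKM + 1) scale between 2 tumors. They are the 200 bases from 250 to 51 before the RefSeq start on GRCm38.p6, written 5′ to 3′ on the gene's strand. Capitals mark the SOX-type letters ACAANG and the MYRF-type letters CTGGNAC, each searched on both strands; the 2 kinds do not overlap in these windows. The windows are chr9:120149492-120149691 (plus strand) for Mobp, chr2:58052915-58053114 (minus) for Ermn and chr11:100574689-100574888 (plus) for Cnp.
Mobp: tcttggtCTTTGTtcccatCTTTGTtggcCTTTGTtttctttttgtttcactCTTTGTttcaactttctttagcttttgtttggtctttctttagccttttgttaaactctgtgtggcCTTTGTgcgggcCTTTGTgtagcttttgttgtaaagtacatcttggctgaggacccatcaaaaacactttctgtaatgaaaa
Ermn: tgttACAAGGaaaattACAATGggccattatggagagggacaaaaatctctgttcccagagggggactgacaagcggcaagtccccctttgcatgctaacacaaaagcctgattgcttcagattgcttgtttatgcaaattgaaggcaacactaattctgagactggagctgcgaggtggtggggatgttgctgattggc
Cnp: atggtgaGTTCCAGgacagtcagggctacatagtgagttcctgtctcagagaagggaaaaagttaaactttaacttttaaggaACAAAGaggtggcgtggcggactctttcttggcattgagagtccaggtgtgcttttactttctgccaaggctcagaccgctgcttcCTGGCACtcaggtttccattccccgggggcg

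The Mobp window held 6 SOX-type matches, all written CTTTGT on this strand. Of 32851 windows of the same length over all RefSeq starts, which include that of Mobp, 1 held 6 or more, so this 1 is the Mobp window itself. The Ermn window held 2 such matches, as 5.96% of all windows did at least. The Cnp window held 1 SOX-type match, present in 31.0% of windows, and 2 MYRF-type matches, reached by 1.08%. Windows were found for 8 of the 9 members, 10 in all because Mag has 3 starts, some with overlapping windows. Counted by window, 8 of 10 held a SOX-type match and 4 of 10 a MYRF-type match, present in 31.0% and 13.2% of all windows. Counted by gene, 6 of 8 held a SOX-type match and 3 of 8 a MYRF-type match. The shares of all windows do not apply to the counts by gene, because Mag has 3 windows. The windows of Mal and Cldn11 held neither. A match describes letters in a window and does not show that a factor binds there.

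Of the compact myelin pair, Mobp stood apart between hosts and Mbp much less. Mobp lies on the plus strand of chromosome 9 (120149707 to 120181484). The processed transcript Gm38642 overlaps Mobp on the same strand, and its part in the Mobp value was not tested. The Mobp level was 24.6 FPKM in the young tumor, 54.1 in the old and 67.0 in the NMN-before tumor. The level in the old tumor was 2.204 times that in the young one, with a 95% counting interval from 1.97 to 2.46. Intervals given here cover counting error only. Mbp was at 246, 224 and 186 FPKM in the same order, so that the young tumor was highest and the NMN-before tumor lowest. The old tumor had 1.10 times less Mbp than the young one (interval 1.06 to 1.15). As a result, Mbp exceeded Mobp 10.01-fold in the young tumor, 4.13-fold in the old and 2.77-fold in the NMN-before tumor. These ratios lie within a library and do not depend on its scaling.

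Cnp and Ermn, both proteins of cytoplasm-containing myelin, differed in opposite directions. Cnp lies on the plus strand of chromosome 11 (100574904 to 100591729). Its level was 346 FPKM in the young, 193 in the old and 139 in the NMN-before tumor. The young tumor thus had 1.79 times the Cnp of the old one (interval 1.74 to 1.86) and 2.48 times that of the NMN-before tumor (2.41 to 2.56). Ermn (chromosome 2, 58045113 to 58052864, minus strand) was at 0.836 FPKM in the young, 3.87 in the old and 3.33 in the NMN-before tumor. About 44 fragments stood behind the young value, 153 behind the old and 218 behind the NMN-before one. The old tumor had 4.64 times the Ermn of the young one, with an interval from 3.29 to 6.63. Ermn was the one member under 1 FPKM in any tumor. Both genes overlap a gene on the other strand, as Mbp (Rpl21-ps8) and Mog (Gm22388) do. The sources used here do not say whether fragments were counted by strand. Galnt5, which overlaps the end of Ermn, was at 0.0291 to 0.108 FPKM in tumors, below every Ermn value there. Dnajc7, which overlaps the end of Cnp, was at 165 to 177 FPKM in tumors and was highest in the young one; its part in the Cnp value was not tested.

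Among the surface proteins, Mag was highest in the old tumor and Opalin in the young one. Mag (chromosome 7, 30899176 to 30914873, minus strand), a lectin that faces the axon, was at 11.6 FPKM in the young, 18.4 in the old and 14.6 in the NMN-before tumor. The old tumor had 1.59 times the Mag of the young one (interval 1.36 to 1.86). Mog (chromosome 17, 37010743 to 37023398, minus strand), on the outer face of the sheath, was at 3.96, 4.66 and 2.68 FPKM. Its ratio of old to young, 1.17, had an interval from 0.862 to 1.60, so that no difference was detectable at this depth. The NMN-before tumor had 1.74 times less Mog than the old one (interval 1.26 to 2.40). Opalin (chromosome 19, 41061710 to 41077113, minus strand) was at 2.51, 1.93 and 1.20 FPKM, from about 64, 37 and 38 fragments. The intervals of neighboring values in that order reached past equality, while the young tumor had 2.09 times the Opalin of the NMN-before tumor (1.38 to 3.21).

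Mal and Cldn11, 2 multispanning membrane proteins, also parted. Mal (chromosome 2, 127633226 to 127656695, minus strand) was at 4.86 FPKM in the young, 9.10 in the old and 7.87 in the NMN-before tumor. The old tumor had 1.87 times the Mal of the young one (interval 1.55 to 2.26), and old and NMN-before tumors were not distinguishable by counting error (ratio 0.865, interval 0.740 to 1.02). MAL is also known from human T cells. Of 6 T cell markers, Cd3d, Cd3e and Cd8a were under 1 FPKM in all tumors. Cd3g was at 0.759, 1.94 and 0.442 FPKM in young, old and NMN-before tumors, highest in the old one as Mal was. The row that Lck shares with Mir8119 was at 2.67, 3.43 and 3.68 FPKM, and Cd4 at 1.12, 0.866 and 0.903. The summed level of the list was 6.08, 7.20 and 5.49 FPKM, with Lck its largest part. The Lck row was also at 1.51, 3.39 and 0.391 FPKM in young, old and NMN-before GIC cultures. All other markers of the list were under 1 FPKM in each culture. The part of T cells in the Mal value was not tested. Cldn11 (chromosome 3, 31149920 to 31164324, plus strand) was at 37.7, 24.8 and 22.9 FPKM. The young tumor had 1.52 times the Cldn11 of the old one (interval 1.37 to 1.70), and the interval for old against NMN-before included equality (0.962 to 1.21).

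**Figure D1:**
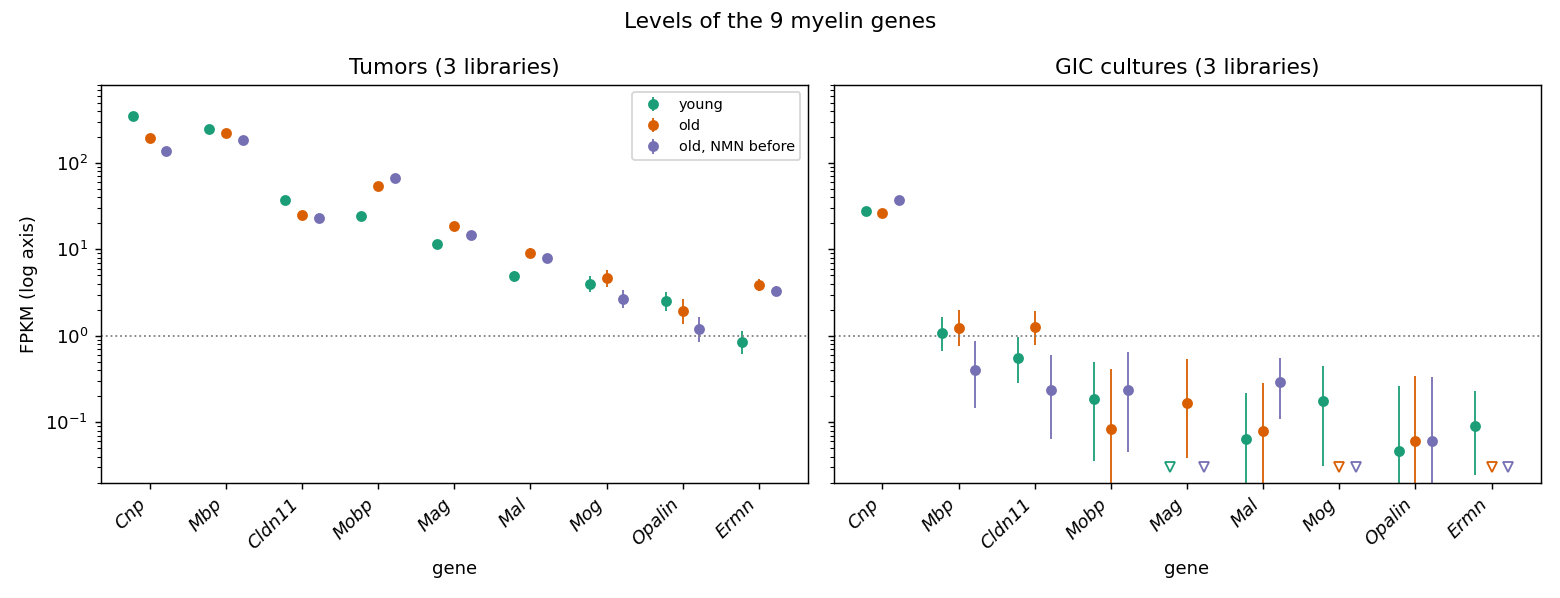
FPKM (log axis) of the 9 myelin genes in the 3 tumor libraries (left) and the 3 GIC libraries (right), 1 point a library, with 95% counting intervals as bars; open triangles mark values listed at 0, and the dotted line is 1 FPKM. In tumors Cnp, Mbp, Cldn11 and Opalin step down from young to NMN-before while Mobp steps up; in GICs only Cnp lies above the line in all 3 libraries.

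Mobp and Ermn were the members 2-fold apart between old and young tumors. A log2(FPKM + 1) difference of 1 or more was used as the size rule, among rows at 1 FPKM or more in 1 of the 3 libraries of a table; all 9 members passed this minimum in tumors. Mobp (log2 difference 1.11) and Ermn (1.41) passed it upward, 2 of 9, where 1.60% of 14335 rows did. No member passed it downward, as 144 of the 14335 rows did, and Cnp came nearest at -0.84. With a minimum of 5 FPKM, which removes Ermn, 1 of 6 members was 2-fold apart. The members' median was 0.19, beside -0.01 over all rows, and 5 of 9 were higher, beside 48.3% of all rows.

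Between the NMN-before and the old tumor, 8 of 9 members were lower, and Mobp was the exception. None differed by 2-fold, where 1.86% of rows were 2-fold higher and 1.25% lower. The median log2 difference was -0.26, beside 0.01 over all rows, of which 48.2% were lower. Mog was furthest apart at -0.62, then Cnp at -0.47 and Opalin at -0.41, while Mobp was at 0.30. The counting intervals of Mal, Cldn11, Opalin and Ermn included equality in this comparison. Neuron markers were higher in 9 of 10 in the NMN-before tumor, and their summed level was 209 FPKM in the young, 255 in the old and 554 in this tumor. Astrocyte markers were lower in 8 of 10 (median -0.36), microglia markers in 8 of 10 (-0.12) and choroid plexus genes in 3 of 3 measured (-1.06), the direction of most myelin genes. How far a larger share of other tissue in a piece lowered or raised a myelin value was not tested. In such bulk samples, fewer oligodendrocytes, less RNA per oligodendrocyte and a change in the glioma cells cannot be told apart. GIC cultures themselves held Cnp at 26.1 to 37.4 FPKM.

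Between the NMN-before and the young tumor, 4 members were higher and 5 lower; 48.8% of all rows were higher. Mobp (log2 difference 1.41) and Ermn (1.24) were 2-fold higher, where 2.79% of rows were. Cnp was 2-fold lower at -1.31, where 0.977% of rows were. The median of -0.40 stood beside -0.01 over all rows; with a minimum of 5 FPKM, which leaves 6 members, it was -0.0435 beside -0.027. This comparison shares its libraries with the other 2, so it adds no independent values.

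**Figure D2:**
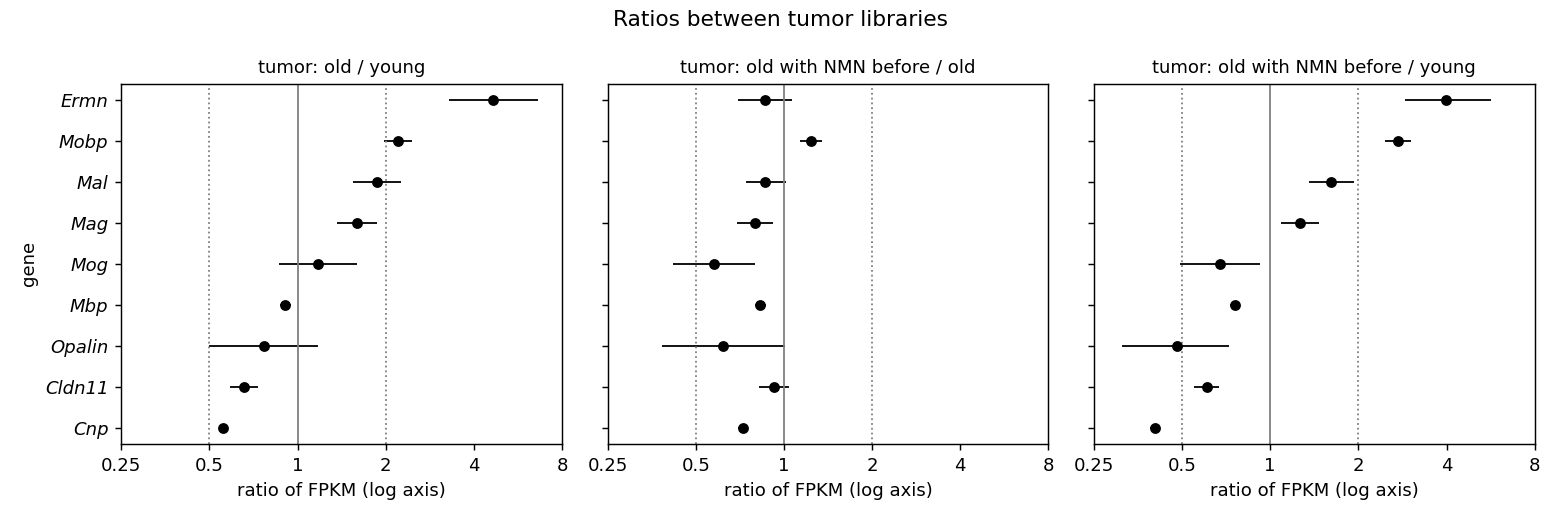
Ratio of FPKM between 2 tumor libraries (log axis) for each of the 9 myelin genes, in 3 comparisons, with 95% counting intervals as bars; the solid line marks equality and dotted lines 2-fold. For old over young the genes spread from 0.557 (Cnp) to 4.64 (Ermn), and for NMN-before over old they lie between 0.576 (Mog) and 1.24 (Mobp).

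The order of the levels shifted as well. Cnp had the highest level in the young tumor, and Mbp in the other 2. Over the 9 genes the summed level was 677 FPKM in the young, 533 in the old and 445 in the NMN-before tumor, so the total was highest where Mobp and Ermn were lowest. Cnp made up 51.0%, 36.1% and 31.3% of this sum, and Mobp 3.62%, 10.2% and 15.1%. Mbp took 36.3%, 42.0% and 41.8%. The 5 genes that were higher in the old tumor (Mobp, Mag, Mog, Mal and Ermn) were grouped here by their values. They made up 6.76% of the sum in the young tumor, 16.9% in the old and 21.5% in the NMN-before tumor. The rise from young to old follows from this grouping. From old to NMN-before, Mobp alone of the 5 was higher, and Mag, Mog, Mal and Ermn were lower. Across the 3 tumors, 4 genes (Mbp, Cnp, Cldn11 and Opalin) stepped down from young to old to NMN-before, Mobp stepped up, and Mag, Mog, Mal and Ermn were highest in the old tumor.

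**Figure D3:**
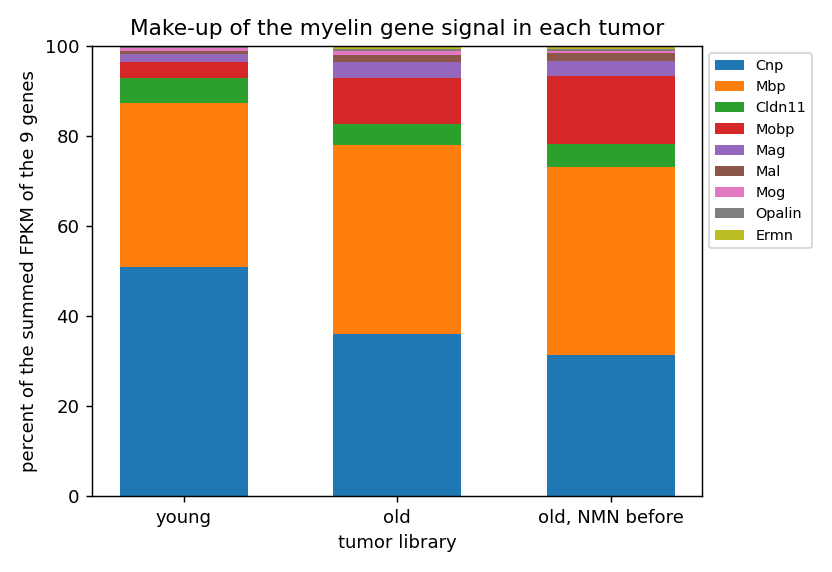
Share of each myelin gene in the summed FPKM of the 9 genes (bars stacked to 100%) in the young, old and NMN-before tumor. The Cnp share is 51.0%, 36.1% and 31.3%, and the Mobp share 3.62%, 10.2% and 15.1%.

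Of 13 other genes of myelin membranes and junctions, 12 were measured in tumors; 5 were higher and 7 lower in the old tumor, with a median of -0.11. Hapln2, a link protein at nodes of Ranvier, was 2-fold higher, at 1.63, 5.35 and 2.26 FPKM in young, old and NMN-before tumors. Gjb1, a gap junction protein of myelin, was at 1.11, 3.07 and 2.94 FPKM in young, old and NMN-before tumors. Ppp1r14a, a phosphatase inhibitor, was at 3.48, 1.94 and 2.33 FPKM.

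Genes of myelin lipid synthesis were lower in 4 of 6 in the old tumor (median -0.13) and in 5 of 6 in NMN-before against old (-0.24), none by 2-fold. Gal3st1, which sulfates galactolipids, was at 26.1, 15.7 and 13.1 FPKM, and Fa2h, which hydroxylates their fatty acids, at 19.2, 13.5 and 13.9. Both were highest in the young tumor, as Cnp was. Ugt8a, which makes galactosylceramide, was at 4.06, 3.74 and 1.69 FPKM. Aspa, an enzyme of mature oligodendrocytes that splits N-acetylaspartate, was at 1.46, 3.64 and 2.12 FPKM, in the order seen for Mag.

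Of 14 other genes of mature oligodendrocytes, 13 were measured; 8 were higher and 5 lower in the old tumor (median 0.40), and 4 were 2-fold higher. Over all rows, 48.3% were higher and 1.60% were 2-fold higher. The 4 were Klk6, a protease (0.840, 4.39 and 9.94 FPKM in young, old and NMN-before tumors), Apod, a lipid carrier (65.9, 157 and 189), Gpr37, a receptor (0.940, 3.25 and 1.47), and Car2, carbonic anhydrase 2 (13.6, 29.2 and 24.8). Klk6 and Apod stepped up through the 3 tumors as Mobp did. Sirt2, a deacetylase abundant in myelin, was at 285, 166 and 144 FPKM, the order of Cnp. The row that Trf shares with Srprb and Gm20425 was at 70.1, 92.8 and 111 FPKM. In GICs, 10 of the 14 genes were measured, so the list is not one of oligodendrocytes alone. Sirt2 was at 50.0, 44.7 and 30.8 FPKM in young, old and NMN-before GICs, and the Trf row at 72.7, 68.8 and 86.4. Apod and Car2 reached 1.11 and 1.87 FPKM in old GICs, while Klk6 and Gpr37 stayed under 1 FPKM in all cultures.

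Genes of the premyelinating stage were lower in the old tumor in 7 of 8, where 7381 of all 14335 rows were. Their median of -0.56 was the lowest among the oligodendrocyte lists. Bmp4, a growth factor, was 2-fold lower, at 4.20 FPKM in the young, 0.537 in the old and 0.612 in the NMN-before tumor. Enpp6, a phosphodiesterase, was at 19.8, 10.2 and 5.30 FPKM, and Bcas1 at 396, 261 and 183. Tns3, a tensin, was at 72.9, 44.8 and 39.2 FPKM. Enpp6, Bcas1 and Tns3 stepped down through the 3 tumors in the order of Cnp. In GICs, 6 of the 8 genes were measured, 4 higher and 2 lower in old than in young cultures (median 0.28). Bcas1 was at 40.2, 51.3 and 67.4 FPKM in young, old and NMN-before GICs, and Tns3 at 55.8, 37.0 and 44.2. Precursor markers were divided, 5 higher and 5 lower in the old tumor, with a median of -0.01.

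Regulators of myelination were lower in 8 of 10 in the old tumor (median -0.28). Zfp488, a zinc finger protein of oligodendrocytes, was 2-fold lower, at 4.46, 0.425 and 0.180 FPKM in young, old and NMN-before tumors. Myrf was at 11.1, 5.39 and 4.44 FPKM, and Sox10 at 36.3, 24.5 and 7.30. Both factors were lowest in the NMN-before tumor, as were Mbp, Cnp, Mog, Cldn11 and Opalin. Mobp was highest there, and Mag, Mal and Ermn were lowest in the young tumor. Nkx6-2, a homeobox factor of late oligodendrocytes, was 2-fold higher in the old tumor, at 0.264, 2.23 and 1.16 FPKM. Olig1 (476, 466 and 531 FPKM) and Olig2 (198, 163 and 160) differed less.

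**Figure D4:**
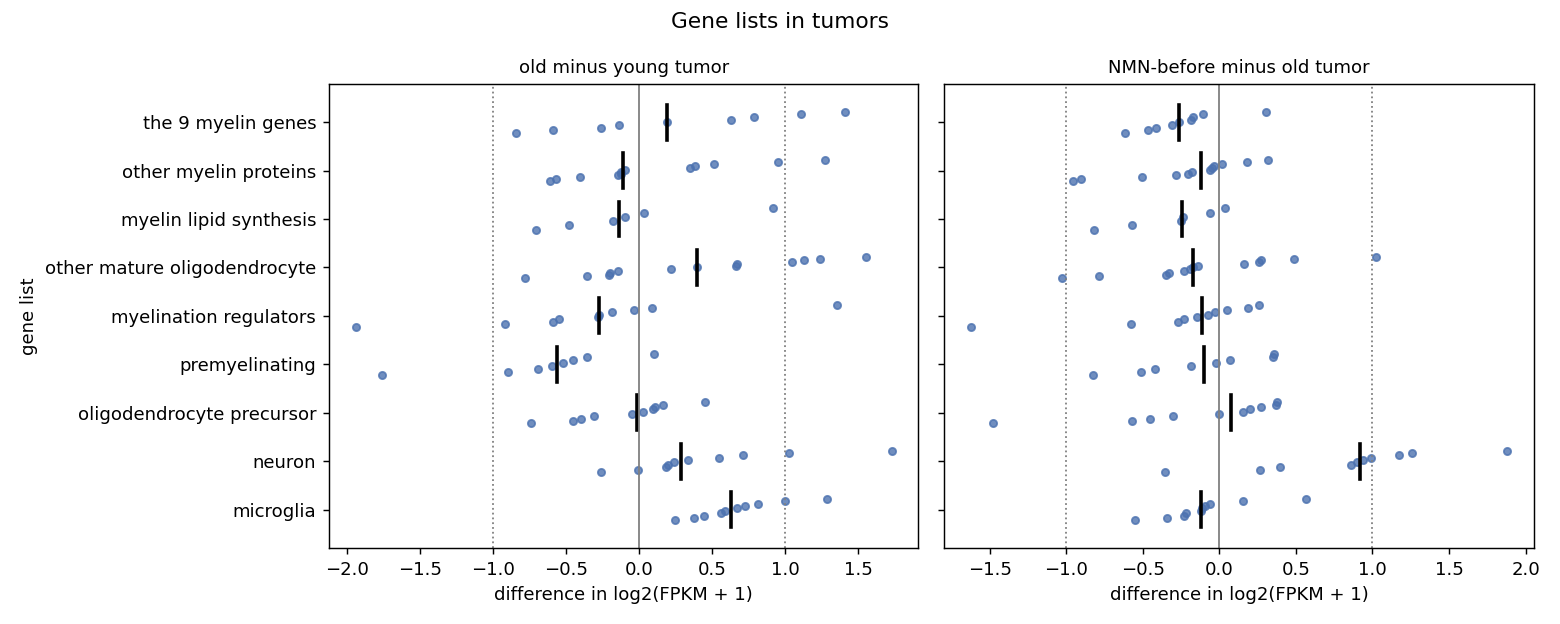
Differences in log2(FPKM + 1) for old minus young (left) and NMN-before minus old (right) tumors, 1 point a gene, for the 9 myelin genes and 8 other gene lists; black bars are medians, dotted lines 2-fold. For old minus young, medians run from -0.56 for premyelinating genes to 0.63 for microglia markers, with the 9 myelin genes at 0.19.

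Other cell types were read beside these values. Neuron markers were higher in the old than in the young tumor in 8 of 10 (median 0.29), and microglia markers in 10 of 10 (0.63), with a summed level of 289, 427 and 389 FPKM in young, old and NMN-before tumors. Astrocyte markers were higher in 6 of 10 (median 0.20), endothelial markers in 2 of 8 (-0.09) and T cell markers in 2 of 3 measured (0.27). The choroid plexus gene Ttr was at 24.0, 151 and 9.01 FPKM, and all 3 measured choroid plexus genes were higher in the old tumor (median 0.65). Foxj1, the 1 measured ependymal gene of 4, was at 3.08, 3.996 and 3.75 FPKM. Of 7 genes of Schwann cells, which make peripheral myelin, 4 were measured (2 higher and 2 lower in the old tumor, median 0.02). Ncmap and the row that Pmp2 shares with Fabp9 and Gm37389 were under 1 FPKM in all tumors. Drp2 was at 4.05, 7.14 and 3.996 FPKM in young, old and NMN-before tumors, Egr2 at 3.32, 1.92 and 2.45, and Prx at 1.15, 0.866 and 0.989. The summed level of the list was 49.9, 58.6 and 65.0 FPKM, mostly Pmp22. The part of these cell types in the myelin values was not tested.

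In GIC cultures, Cnp was present, Mbp and Cldn11 were near the threshold, and the other 6 members were near 0. Cnp was at 28.1 FPKM in young, 26.1 in old and 37.4 in NMN-before GICs, from about 788, 561 and 811 fragments. Old and young GICs were not distinguishable by counting error (ratio 0.931, interval 0.835 to 1.04), and NMN-before GICs had 1.43 times the Cnp of old GICs (1.28 to 1.60). Dnajc7, which overlaps the end of Cnp, was at 197, 201 and 221 FPKM in these cultures, above Cnp, and its part in the Cnp value was not tested.

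Mbp was at 1.09, 1.24 and 0.401 FPKM in young, old and NMN-before GICs, from about 21, 19 and 6 fragments. The row sums all Mbp transcripts, including those of the upstream golli promoter, which are known from cells that make no myelin. Cldn11 was at 0.548, 1.26 and 0.236 FPKM, from about 12, 21 and 4 fragments. Both genes were lowest in NMN-before GICs: old GICs had 3.09 times the Mbp of NMN-before GICs (interval 1.23 to 9.79) and 5.32 times the Cldn11 (1.79 to 21.3). None of the 3 measured members passed the size rule in GICs, where 1.23% of 12809 rows were 2-fold higher and 1.58% lower for old against young. The shares were 3.26% and 2.30% for NMN-before against old, and 3.58% and 3.04% for NMN-before against young. The medians over the 3 genes were 0.10, -0.68 and -0.32, while those over all rows lay between -0.0021 and 0.0103. These medians depended on the settings: with a minimum of 5 FPKM, which leaves Cnp alone, they were -0.10, 0.50 and 0.40. For NMN-before against old, a pseudocount of 0.1 gave -1.42 with 2 genes 2-fold apart, and no filter gave 0.

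The 6 members found above 1 FPKM in tumors alone reached at most 0.288 FPKM in GICs. Opalin rested on about 1 fragment in each culture. Mag was listed at 0 in young and NMN-before GICs, and Mog and Ermn were listed at 0 in old and NMN-before GICs. Mal was highest of the 6, at 0.288 FPKM in NMN-before GICs, and Mobp was at 0.186, 0.0837 and 0.235 FPKM in young, old and NMN-before GICs. These values rest on 7 fragments or fewer, and their order was not assessed. The lowest tumor value exceeded the highest GIC value 3.72-fold for Cnp, 150-fold for Mbp and 105-fold for Mobp; the 2 tables were treated as scaled separately, so these are ratios of deposited levels. Sox10, which myelin genes depend on, was at 0.245 and 0.0401 FPKM in young and old GICs and listed at 0 in NMN-before GICs, while Olig2 was at 108, 136 and 254 FPKM.

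Rows whose tumor pattern lay nearest to the median of the 6 members under 1 FPKM in all GICs (0.71 for old minus young and -0.25 for NMN-before minus old) were Fcgr1, Itgb2, Inpp5j, Fcgr4 and Ncf1. Their Euclidean distances over these 2 log2 differences were 0.0273, 0.0413, 0.0533, 0.0557 and 0.0713. Among 413 rows at 5 FPKM or more in a tumor and under 1 FPKM in all GICs, 28 lay within 0.25. Of the members themselves, Mag (0.63 and -0.31) and Mal (0.79 and -0.19) lay within that distance. Mobp (1.11 and 0.30), Ermn (1.41 and -0.17), Mog (0.19 and -0.62) and Opalin (-0.26 and -0.41) lay outside it, so the median is no shared pattern. Nearest to the median of Cnp, Mbp and Cldn11 over the 4 differences in tumors and GICs were Rprm, Cmpk2, Wdr3, Tcp11l1 and Uck1, at distances of 0.246 to 0.336. Of 8880 rows at 5 FPKM or more in a tumor and 1 FPKM or more in a GIC library, 1 lay within 0.25. The median was -0.59 and -0.26 in tumors and 0.10 and -0.68 in GICs. It does not describe Cnp, which was at -0.84 and -0.47 in tumors and -0.10 and 0.50 in GICs. The GIC part of the median is that of Mbp, from about 21, 19 and 6 fragments. Likeness over 3 libraries a table says nothing of shared function.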

How the data were processed

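Total RNA of 6 libraries was depleted of ribosomal RNA and sequenced as stranded read pairs, per the labels' protocols. Per the submitters' processing notes, reads were handled with Cuffdiff, Cufflinks 2.2.1, STAR 2.5.4b, Trim Galore 0.6.2 and bcl2fastq 1.8.4 on GRCm38. FPKM values, as the authors deposited them, stand in 1 table for tumors and 1 for GICs. The sources used here state neither the annotation, nor the scaling mode, nor the use of strand.

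From these values, differences of log2(FPKM + 1) were taken within a table, among rows at 1 FPKM or more in 1 of its 3 libraries. The pseudocount understates differences of low genes. With 1 library a group no test was run, and 2-fold is a rule of size. Depth was recovered from low values of genes with 1 annotated transcript, assuming a fragment length of 150: 91.6% to 95.0% of 254 to 414 values a library were whole multiples of 1 fragment within 0.05. The method was checked on simulated data. Fragments behind a member use its shortest coding transcript over 1 kb, and are approximate where a gene has several (Mbp, Mobp, Mag, Mog and Mal), and exact 95% Poisson or binomial intervals follow from them. Coordinates are from GENCODE M21 on GRCm38, upstream sequences from RefSeq. Python 3.11.15, numpy 2.4.6, pandas 2.3.3 and scipy 1.17.1 were used.

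The members, the 15 other gene lists and the alternatives (pseudocount, filter, scaling, shared rows) were chosen with earlier results of these data known. Genes named are the members, 9 fixed genes, up to 4 a list with the largest tumor differences, and the rows of nearest pattern; some of these are not reported here.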

Additional observations from a re-analysis of the deposited data

Results flagged for a closer look

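In 4 cases a member differed in opposite directions in tumors and in GICs under the same contrast; the difference between tumors and GICs was not tested, and each side is 2 libraries. Cnp was lower in the NMN-before than in the old tumor (log2 difference -0.47) and higher in NMN-before than in old GICs (0.50). Against young libraries, the values were -1.31 in tumors and 0.40 in GICs. Cldn11 was lower in the old than in the young tumor (-0.59) and higher in old than in young GICs (0.54). Mbp was lower in the old tumor (-0.14) and higher in old GICs (0.10), where its counting interval, a ratio from 0.602 to 2.31, included equality.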

How the results depend on the processing

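In tumors, the split of 5 members higher and 4 lower for old against young, 1 and 8 for NMN-before against old, and 4 and 5 for NMN-before against young was the same under median-of-ratios and TPM scaling; a pseudocount cannot change it. With a minimum of 5 FPKM, 6 members were left, 1 instead of 2 was 2-fold apart for old against young, and the NMN-before minus young median was -0.0435 instead of -0.40. GIC medians rest on 3 genes, and on Cnp alone at a minimum of 5 FPKM, where they were -0.10, 0.50 and 0.40 for old minus young, NMN-before minus old and NMN-before minus young, all of opposite sign to 0.10, -0.68 and -0.32. With no filter, the last 2 were 0. With pseudocounts of 0.1 and 0.5 the NMN-before minus old median was -1.42 and -0.95, with 2 and 1 members 2-fold apart instead of 0; with 0.1, the NMN-before minus young median was -0.95, and 1 member was 2-fold apart in that comparison and for old against young. With TPM scaling these medians were -0.94 and -0.53, with 1 member 2-fold apart for NMN-before against old. The pseudocount acts on low values by construction; the cause of the other shifts, beyond the number of genes left, was not tested. Single member values stayed within 0.2 in 66 of 72 cases and none changed sign under the 2 scalings, and stayed within 0.2 in 57 of 72 with the 2 pseudocounts, which cannot change a sign; filters and shared rows leave a member's own value as it is. No paired analysis was possible because each group held 1 library. Depth limits Mog, Opalin and Ermn in tumors and all members but Cnp in GICs. Ermn rested on about 44 fragments in the young tumor.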

Other observations

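Genes of nodes and paranodes, where axon and myelin loops meet, were compared between the NMN-before and the old tumor. Of 8 measured, 7 were higher in the NMN-before tumor (median log2 difference 0.48), while 8 of 9 myelin genes were lower. Over all 14335 rows, 7382 were higher. Neuron markers were higher in 9 of 10 in the same comparison (median 0.92), with a summed level of 255 FPKM in the old and 554 in the NMN-before tumor, and their part in these values was not tested. Kcna1, a potassium channel beside the paranode, was at 1.53, 2.05 and 3.74 FPKM in young, old and NMN-before tumors, Cntnap1, an axonal adhesion protein of the paranode, at 6.85, 6.64 and 11.0, and Scn8a, the sodium channel of nodes, at 8.93, 6.16 and 10.5. For old against young the same list was higher in 3 of 8 (median -0.04). No gene of it was 2-fold apart in either comparison. Of the 8, 6 were also at 1 FPKM or more in each GIC library, with Cntn1 at 25.1, 31.4 and 49.8 FPKM in young, old and NMN-before GICs. The Sptbn4 row is shared with Shkbp1 and Gm20479.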
